A study of Mus musculus with 3 samples.

Results

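Imprinted genes, which are transcribed mainly from the copy inherited from the father or mainly from the copy inherited from the mother, were followed in skin from the back of mice aged 4 days, comparing uncv null animals with a wild type sister. A list of 45 imprinted genes was looked up among probe sets annotated with exactly 1 gene symbol. Of these, 42 had such a probe set, and each gene was represented by its brightest probe set, judged by the mean of all 3 arrays. H19, Zrsr1 and Dio3 had none and were not analysed here. The 42 genes were taken from 18193 genes with a single-symbol probe set. Total RNA of 3 female BALB/cA mice, sisters born to uncv heterozygous (uncv +/-) parents, was hybridised to 1 biotin-labelled array each. The wild type group (uncv +/+) held 1 array and the uncv null group (uncv -/-) held 2 arrays, called uncv null 1 and uncv null 2. Values for 3 arrays are always given in the order wild type, uncv null 1, uncv null 2, and paired values in the order uncv null 1, uncv null 2. Uncovered (uncv) is a spontaneous mutation with sparse or missing hair that was later mapped to Rhbdf2, and the comparison asks how early postnatal skin differs without normal uncv function. The RNA came from whole skin, so fewer cells of a type and less RNA per cell cannot be told apart.

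Genomic imprinting rests on DNA methylation that is set in the egg or the sperm and kept in the embryo at control regions, where the zinc finger protein ZFP57 and its cofactor TRIM28 protect it. Many paternally expressed genes, such as the growth factor gene Igf2, are known to promote fetal growth, and many maternally expressed genes, such as the cell cycle inhibitor gene Cdkn1c and the IGF2 clearance receptor gene Igf2r, are known to restrain it. A number of imprinted genes are abundant in embryonic mesoderm, including muscle and connective tissue precursors, and decline after birth. The arrays measured total transcript and could not tell the parental copies apart.

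The promoter windows of 5 members are shown because these genes lay lower in uncv null skin and represent a paternally expressed gene and 2 maternally expressed noncoding RNAs of the same chromosome 12 cluster, and 2 paternally expressed genes of other chromosomes. Each window runs 5′ to 3′ over 300 bases around the gene's start, from RefSeq on GRCm38.p6, and capitals mark TGCCGC, the core of the ZFP57 recognition sequence, or its reverse complement GCGGCA. The windows lie at chr12:109452573-109452872 on the plus strand for Dlk1, chr12:109540746-109541045 on the plus strand for Meg3, chr12:109603695-109603994 on the plus strand for Rian, chr6:30737800-30738099 on the plus strand for Mest and chr10:13090582-13090881 on the plus strand for Plagl1.
Dlk1: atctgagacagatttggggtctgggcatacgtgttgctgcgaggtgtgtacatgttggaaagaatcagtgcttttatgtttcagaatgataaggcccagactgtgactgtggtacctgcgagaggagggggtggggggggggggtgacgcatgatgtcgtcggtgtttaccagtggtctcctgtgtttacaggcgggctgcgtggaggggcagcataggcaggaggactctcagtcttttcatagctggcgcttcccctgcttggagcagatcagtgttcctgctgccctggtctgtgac
Meg3: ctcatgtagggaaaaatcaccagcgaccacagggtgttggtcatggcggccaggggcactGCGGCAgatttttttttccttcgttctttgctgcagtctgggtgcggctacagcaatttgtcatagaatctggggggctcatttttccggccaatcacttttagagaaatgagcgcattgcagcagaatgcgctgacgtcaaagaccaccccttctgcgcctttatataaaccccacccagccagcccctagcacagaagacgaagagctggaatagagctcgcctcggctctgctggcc
Rian: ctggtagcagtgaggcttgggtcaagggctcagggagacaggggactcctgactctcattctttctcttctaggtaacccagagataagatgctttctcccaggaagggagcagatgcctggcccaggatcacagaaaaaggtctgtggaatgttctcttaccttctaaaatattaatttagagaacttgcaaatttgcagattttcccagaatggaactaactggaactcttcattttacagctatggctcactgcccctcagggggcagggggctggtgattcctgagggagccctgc
Mest: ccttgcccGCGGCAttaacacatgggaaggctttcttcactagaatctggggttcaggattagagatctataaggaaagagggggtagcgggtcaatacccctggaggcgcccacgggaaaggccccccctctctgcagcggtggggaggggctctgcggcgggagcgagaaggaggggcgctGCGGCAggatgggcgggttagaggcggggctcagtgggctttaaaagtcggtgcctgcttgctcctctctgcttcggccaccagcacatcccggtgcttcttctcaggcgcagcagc
Plagl1: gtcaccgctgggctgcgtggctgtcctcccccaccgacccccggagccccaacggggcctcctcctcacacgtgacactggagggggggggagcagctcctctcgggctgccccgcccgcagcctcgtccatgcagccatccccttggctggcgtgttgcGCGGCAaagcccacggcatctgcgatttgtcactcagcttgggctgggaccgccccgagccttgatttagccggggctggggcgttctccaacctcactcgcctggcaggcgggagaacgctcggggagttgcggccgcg
Of the 45 members, 38 had a promoter window in the table, with 58 windows in all, since a gene can have several starts. TGCCGC was found on either strand in 13 of the 58 windows (22.4%) and in 11.6% of all 32851 windows of the same length. Some windows overlap, as 2 of Mest do, so 1 site can enter more than 1 window in this count and the next. Counted per gene, 12 of the 38 members had a match, and no such count over all genes is given here. The member windows held a median of 15 CpG dinucleotides, against 7 over all windows. Among windows with at least 15 CpG the motif was in 10 of 30 member windows (33.3%) and in 25.1% of all such windows. Within the chromosome 12 cluster the Meg3 window shown held 13 CpG, the Dlk1 window 9 and the Rian window 0. Windows of the cluster that are not shown held 1 CpG (a second Meg3 start), 10 (Mirg) and 25 (Dio3). A match describes the letters of the window and is not a measured binding site.

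Expression values are given on the log2 scale after RMA, the authors' background correction and normalization of the array signals. A gene was tested where its mean over the 3 arrays was at least 5, which held for 8456 genes. Keratin and collagen genes that define skin (Krt5, Krt14, Krt1, Krt10, Col1a1 and Col3a1) had a value of at least 11.1 in every array. Rhbdf2 stood at 5.83, 6.29 and 6.49, and the position of its probe set against the mutated exons was not looked at, so its level does not check the genotype. Control probe sets for 18S ribosomal RNA averaged 3.59, 7.93 and 4.26, and the 3′ minus 5′ difference of the Actb controls was 0.66, 1.23 and 0.79. The part of these differences in the results was not tested. The number of arrays limits the precision, since only the 2 uncv null arrays give a spread. An exact permutation test of 1 against 2 arrays cannot reach a one-sided p below 0.333.

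Of the 42 measured imprinted genes, 26 passed the filter and 16 did not. Among the 26, 17 lay below the wild type value in both uncv null arrays, where 26.4% of all tested genes did. Another 3 lay higher in both, where 38.8% of all tested genes did. The members were chosen with earlier results of these data known, so counts set beside shares of all genes are a description and not a test. The median difference (uncv null minus wild type, log2) over these 26 genes was -0.27 and -0.48, and over all tested genes it was 0.03 and 0.07. The filter sets which members enter, and with no filter 24 of 42 lay lower in both arrays (29.2% of all 18193 genes) and 7 higher (33.9%), with a median of -0.23 over the mean of both arrays, against 0.0088 over all genes. At least 2-fold lower values in both arrays were seen in 1 gene, Rian, against 0.296% of all tested genes, and at least 2-fold higher values in both in 0 (0.225%). In uncv null 2 alone 8 of the 26 were at least 2-fold lower (1.94% of all tested genes), 0 were at least 2-fold higher there (1.54%), and in uncv null 1 alone 1 was at least 2-fold lower (0.497%). By limma with Benjamini-Hochberg adjustment over 13559 probe sets, 0 of the 26 passed the threshold of 0.05, as did 0% of all probe sets (smallest adjusted p = 0.9996). At an unadjusted p under 0.05, 1 of the 26 lay lower (Rian), where 1.31% of all tested genes did, and 0 lay higher, where 1.58% did. The values of single genes are therefore descriptions of these 3 arrays.

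**Figure D1:**
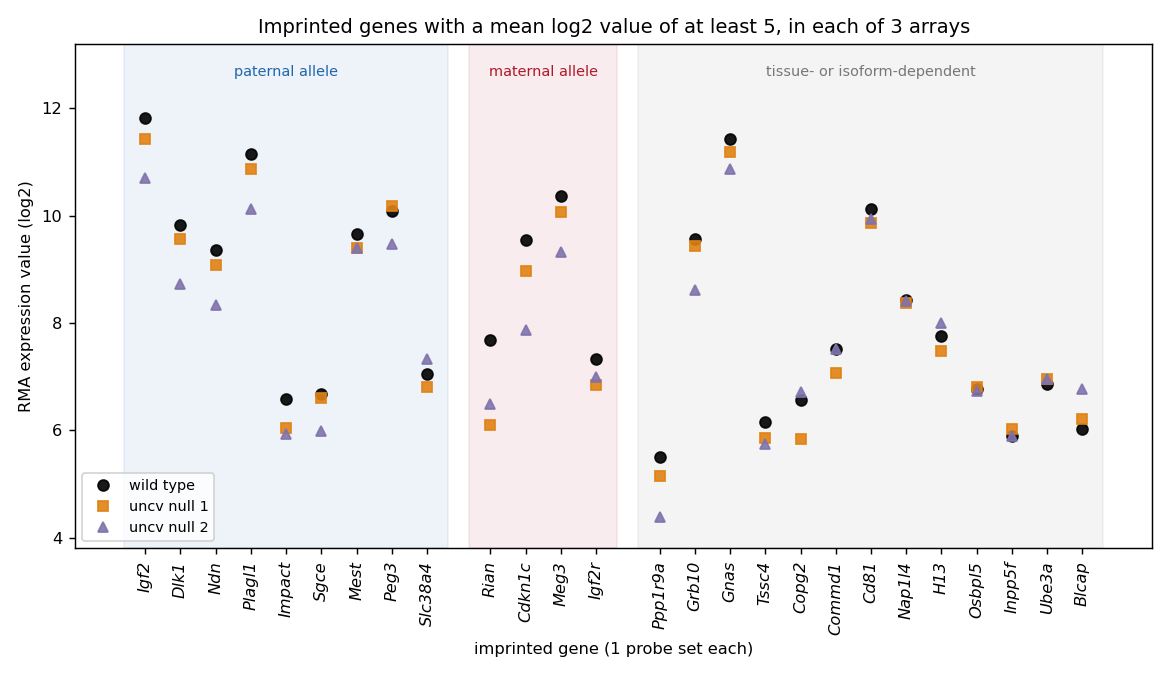
RMA expression (log2, vertical axis) of the 26 imprinted genes with a mean of at least 5, with 1 point per array for wild type, uncv null 1 and uncv null 2, grouped by the allele that is known to be expressed. In 17 genes the wild type point lies above both uncv null points, and in 12 of these uncv null 2 lies lowest; levels of different genes come from different probe sets and are not comparable.

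Which uncv null array lay lower varied among the genes. In 12 of the 26 genes wild type was highest and uncv null 2 lowest, an order held by 15.7% of all tested genes. In 5 genes wild type was highest and uncv null 1 lowest, an order held by 10.7%, and in 6 genes wild type lay in the middle (34.8%). Uncv null 2 was the lowest array in 14 genes in all (30.4%). Uncv null 1 was lowest in 9 of the 26, Rian among them, and in 36.2% of all tested probe sets. Uncv null 2 lay at least 2-fold below uncv null 1 in 1 gene, Cdkn1c (1.03%). The median absolute difference between the 2 uncv null arrays over the 26 genes was 0.52, which exceeds the 0.27 between wild type and uncv null 1 and lies close to the 0.58 between wild type and uncv null 2. Over all tested genes the uncv null arrays differed from each other by a median of 0.22. For these genes the spread within the uncv null group was therefore close to the difference from wild type.

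Among the paternally expressed genes, 9 of 18 measured members passed the filter, and 7 of the 9 lay lower in both uncv null arrays (26.4% of all tested genes). With no filter 11 of the 18 lay lower in both and 3 higher (29.2% and 33.9% of all genes). Igf2, which encodes the fetal insulin-like growth factor 2, stood at 11.81, 11.43 and 10.69, a mean difference of -0.75 ± 0.37 (limma's moderated SE, 1 against 2 arrays), or 1.68-fold lower. Dlk1, a membrane protein of the Notch ligand family that restrains adipocyte formation, stood at 9.82, 9.57 and 8.73, a difference of -0.67 ± 0.40. In both genes wild type was highest and uncv null 2 was apart from the other arrays. Ndn, which encodes the growth suppressor necdin, stood at 9.37, 9.07 and 8.33, a difference of -0.66 ± 0.37. Plagl1, a zinc finger transcription factor known to act on other imprinted genes, stood at 11.15, 10.87 and 10.13, a difference of -0.65 ± 0.37. These 4 genes showed nearly the same steps, with uncv null 1 lower than wild type by 0.25 to 0.38 and uncv null 2 lower by 1.02 to 1.12 on the log2 scale.

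The other paternally expressed genes differed less or did not share a direction. Impact, a regulator of the translational stress response, stood at 6.58, 6.05 and 5.93, and here both uncv null arrays lay close together below wild type (-0.59 ± 0.26). Sgce, which encodes epsilon-sarcoglycan, stood at 6.67, 6.595 and 5.98, so that wild type and uncv null 1 were close and uncv null 2 was low. Mest, a hydrolase associated with the size of fat cells, stood at 9.67, 9.39 and 9.40, with both uncv null arrays lower by 0.28 and 0.27. Peg3, a zinc finger protein of the Peg3 domain on chromosome 7, stood at 10.08, 10.17 and 9.47, and wild type lay between the uncv null arrays. Slc38a4, an amino acid transporter, stood at 7.05, 6.81 and 7.33, again with wild type in the middle, and its mean difference of 0.02 turned negative under other scalings.

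Among the maternally expressed genes, 4 of 11 measured members passed the filter, and all 4 of these lay lower in both uncv null arrays (26.4% of all tested genes). With no filter 7 of the 11 lay lower in both and 1 higher (29.2% and 33.9% of all genes). Rian, a long noncoding RNA that hosts small nucleolar RNAs and microRNAs, stood at 7.68, 6.09 and 6.50. Its difference was -1.39 ± 0.30, or 2.61-fold lower (limma adjusted p = 0.9996), and both uncv null arrays were well below wild type. With all 4 probe sets of Rian averaged, 2 of them below the filter, the differences were -0.96 and -0.65, under 2-fold in both arrays. Cdkn1c, which encodes the cyclin-dependent kinase inhibitor p57, stood at 9.55, 8.96 and 7.87, a difference of -1.13 ± 0.47 (2.19-fold lower, limma adjusted p = 0.9996). The step between the uncv null arrays, -1.10, was as large as this mean difference. Meg3, a long noncoding RNA next to Rian, stood at 10.37, 10.06 and 9.33 (-0.67 ± 0.37), steps close to those of its paternally expressed neighbour Dlk1. Igf2r, the receptor that carries IGF2 to the lysosome, stood at 7.33, 6.85 and 6.99 (-0.41 ± 0.26), with uncv null 1 lowest.

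Paternally and maternally expressed genes were then set side by side. The median difference over the 9 paternally expressed genes was -0.28 and -0.69, and over the 4 maternally expressed genes it was -0.53 and -1.11. Over the mean of both arrays the medians were -0.59 and -0.90, so the paternal median lay 0.31 above the maternal median. This order did not hold under every choice. With no filter, where 18 and 11 genes enter, the paternal median lay below the maternal median (-0.15), and it did so when genes with tissue- or isoform-dependent imprinting were given their best known allele (-0.20, with 10 and 15 genes). At a minimum mean of 7 the medians differed by 0.024. Both classes held medians below 0 in both arrays with the filter at 5, and an order between the classes was not established by these 3 arrays.

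**Figure D2:**
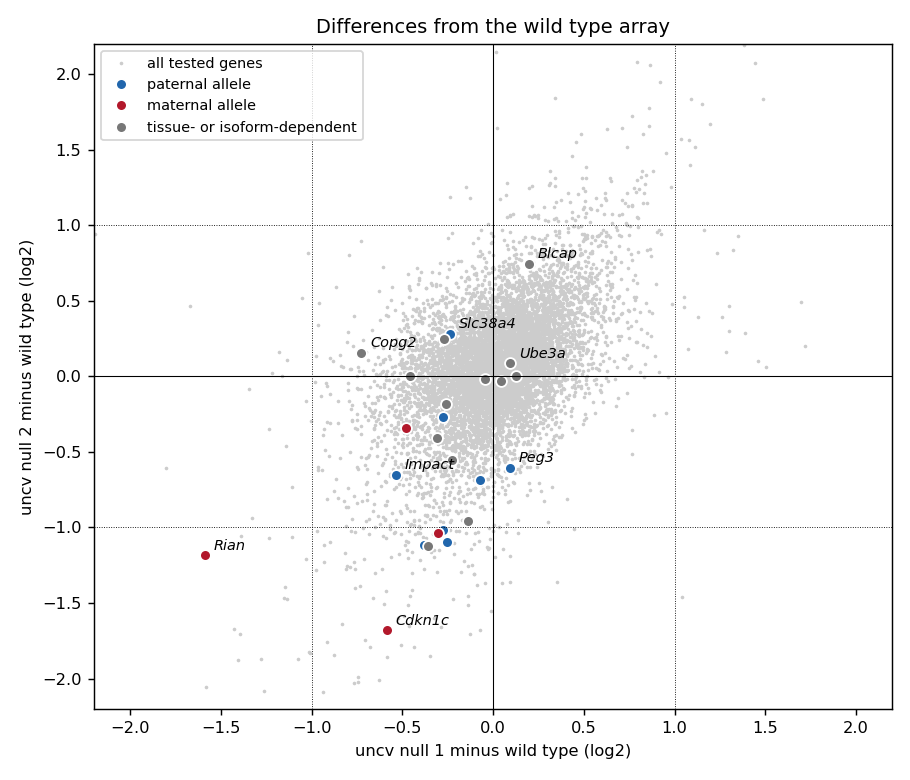
Difference from the wild type array (log2) in uncv null 1 (horizontal axis) and uncv null 2 (vertical axis) for the 8456 tested genes in grey and the 26 imprinted genes as larger points (blue paternal, red maternal, dark grey dependent), with dotted lines at 2-fold and 32 genes outside the plotted range. The paternal and maternal points share the lower left quadrant apart from Peg3 and Slc38a4, and both axes share the same wild type array.

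Imprinting of 13 members is known to depend on the tissue or the transcript, and all 13 passed the filter. Of these, 6 lay lower and 3 higher in both uncv null arrays (26.4% and 38.8% of all tested genes). Their median difference was -0.23 and -0.02. Grb10, an adaptor that dampens insulin and IGF1 receptor signalling, stood at 9.57, 9.43 and 8.62 (-0.55 ± 0.39). Gnas, the locus of the stimulatory G protein alpha subunit, stood at 11.42, 11.19 and 10.87 (-0.39 ± 0.28). Both showed wild type highest and uncv null 2 lowest. Ppp1r9a, which encodes the actin-binding protein neurabin, stood at 5.50, 5.14 and 4.38 (-0.74 ± 0.38), and with a mean of 5.004 it passed the filter only through the wild type and uncv null 1 arrays. Tssc4 stood at 6.16, 5.85 and 5.75, and Cd81, a tetraspanin, at 10.12, 9.86 and 9.94. Blcap ran the other way, at 6.02, 6.22 and 6.77 (0.47 ± 0.32). Its neighbour Nnat, the paternally expressed gene for neuronatin, lies within the Blcap locus and was below the filter, at 4.82, 4.36 and 4.00.

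The remaining dependent members were near wild type or split between the uncv null arrays. Copg2, a coatomer subunit, stood at 6.56, 5.83 and 6.72, so that only uncv null 1 was low. Commd1, a protein of copper transport, stood at 7.52, 7.06 and 7.52, and H13, a signal peptide peptidase, at 7.75, 7.48 and 8.00. For these probe sets the difference was negative in uncv null 1 and not in uncv null 2. The second tested Commd1 probe set stood at 6.68, 6.66 and 6.31, with uncv null 2 the lower array. Nap1l4, a histone chaperone, stood at 8.43, 8.38 and 8.41, and Osbpl5, a sterol-binding protein, at 6.76, 6.81 and 6.74. Ube3a, a ubiquitin ligase imprinted in neurons, stood at 6.86, 6.95 and 6.95, and Inpp5f, an inositol phosphatase, at 5.89, 6.02 and 5.90. The mean differences of these last 4 genes lay between -0.03 and 0.09, well inside their SEs of 0.26, which rest largely on the spread over all tested probe sets.

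Of the 16 members below the filter, 7 lay lower in both uncv null arrays (31.6% of all genes below the filter) and 4 higher (29.6%), and 5 had wild type in the middle. Their values ran from 2.62 to 5.10, near the array medians of 3.702, 3.705 and 3.652, and no fold is given since a signal over background was not established. They were Zim1, Nnat, Snrpn, Phlda2, Peg10, Asb4, Mirg, Peg12, Magel2, Mkrn3, Slc22a18, Ascl2, Usp29, Nap1l5, Kcnq1 and Kcnq1ot1. Mirg, the microRNA host transcript that follows Rian, stood at 5.10, 4.65 and 4.56. Phlda2, a maternally expressed gene that restrains placental growth, ran the other way, at 3.52, 4.03 and 4.44.

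Imprinted genes lie in clusters, and the 45 members come from 18 such loci. In the chromosome 12 cluster the 3 tested members are the paternally expressed Dlk1 and the maternally expressed Meg3 and Rian. All 3 lay lower in both uncv null arrays by their brightest probe set, where 26.4% of all tested genes did. The maternally expressed Mirg also lay lower in both but was below the filter, where 31.6% of genes did and a signal over background was not established. The second tested Dlk1 probe set stood at 5.23, 5.31 and 4.66 (-0.24 ± 0.35, against -0.67), with uncv null 1 slightly above wild type. The RefSeq spans of Meg3, Rian and Mirg hold 1, 3 and 10 microRNA hairpins, which were not measured here as mature microRNAs. The chromosome 7 cluster around Kcnq1 has 10 members, of which Cdkn1c, Cd81, Tssc4, Nap1l4 and Osbpl5 passed the filter. Cdkn1c was alone among them in its size, since the other 4 had mean differences from -0.36 to 0.01. Near Ndn, the neighbours Magel2, Mkrn3, Peg12 and Snrpn were below the filter. Sgce and Ppp1r9a of the chromosome 6 cluster were both lower in both arrays, where 26.4% of all tested genes were. Ppp1r9a only just passed the filter, with a mean of 5.004 and a value of 4.38 in uncv null 2. The neighbours Peg10 and Asb4 were below the filter.

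Several members were covered by more than 1 probe set, which gives a second reading of the same gene in the same RNA. Over all 44 tested probe sets of the members, 33 lay lower in both uncv null arrays and 3 higher, where 28.2% and 34.9% of all tested probe sets did. At least 2-fold lower in both were 5 of the 44, where 0.288% of all tested probe sets were. These were 2 probe sets of Rian and 1 each of Igf2, Grb10 and Meg3. At an unadjusted limma p under 0.05, 8 of the 44 lay lower (1.37% of all tested probe sets) and 0 higher (1.51%), with 0 after adjustment. The filter bears on these counts, since the second Igf2 and Plagl1 probe sets passed it only through the wild type array, with both uncv null values under 5. Such probe sets made up 2 of the 44 and 0.339% of all tested probe sets, and their counts are a description. The second Igf2 probe set stood at 6.54, 4.52 and 4.67, a difference of -1.94 ± 0.26 against -0.75 for the probe set described above. The second Grb10 probe set stood at 6.76, 4.68 and 5.36 (-1.74 ± 0.35, against -0.55). In both genes the second reading placed both uncv null arrays far below wild type and close to or under 5.

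The 5 tested Meg3 probe sets had differences from -1.34 to -0.49. The lowest of them stood at 8.52, 6.996 and 7.36. The second Rian probe set stood at 7.24, 5.06 and 6.18 (-1.62 ± 0.48), in the same direction as the first. All 5 tested Ndn probe sets lay lower in both arrays, from -0.85 to -0.41. For Peg3 the 2 further probe sets stood at 8.73, 7.80 and 8.10 and at 7.99, 7.14 and 7.15, differences of -0.78 ± 0.28 and -0.84 ± 0.26. They placed both uncv null arrays below wild type, unlike the probe set with the highest mean. The second Plagl1 probe set stood at 5.74, 4.997 and 4.60 (-0.94 ± 0.29). A second Gnas probe set, below the filter with a mean of 4.78, stood at 5.81, 4.38 and 4.14. In the 5 probe sets that were at least 2-fold lower in both arrays uncv null 1 was the lowest array. The array order among all tested probe sets that were 2-fold lower in both is not given here. Uncv null 1 is the array with the high 18S values given above, and the part of RNA quality in this order was not tested. Which transcripts or ends each probe set covers was not examined.

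**Figure D3:**
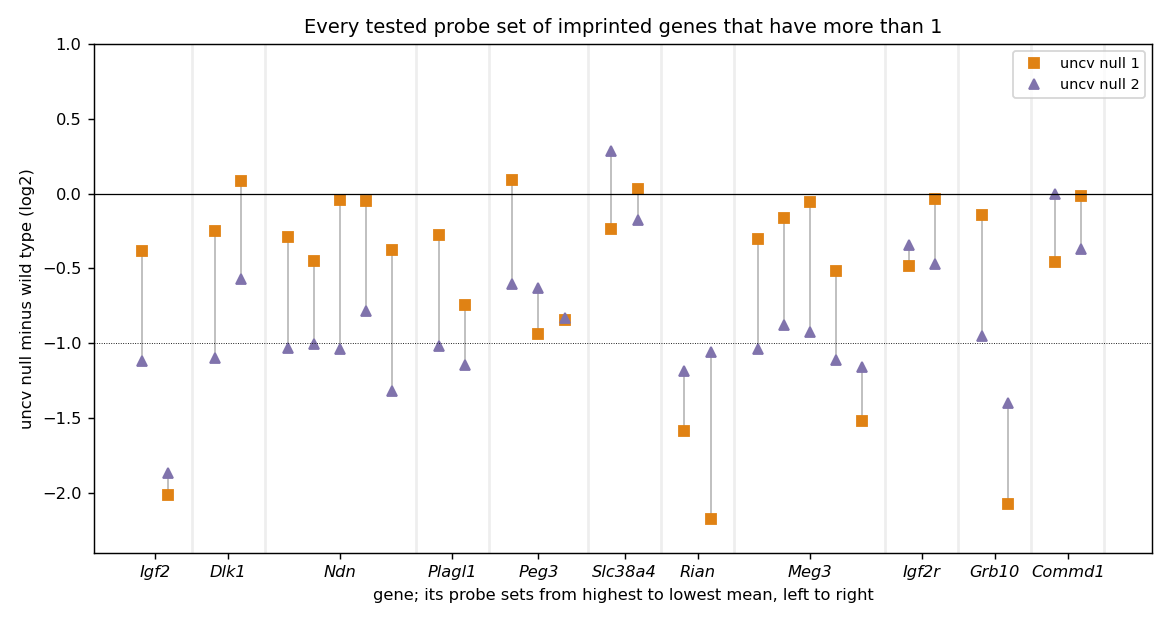
Difference from wild type (log2, vertical axis) in uncv null 1 and uncv null 2 for every tested probe set of the 11 imprinted genes that have more than 1, ordered within each gene from the highest to the lowest mean. Probe sets of Rian and single probe sets of Igf2, Grb10 and Meg3 lie below the dotted 2-fold line in both arrays, while Slc38a4 straddles 0.

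Genes that maintain imprints and genes that act with the members were listed to show their surroundings, and 0 of them passed the adjusted limma test. For the counts of these and the later lists, 26.4% of all tested genes lay lower and 38.8% higher in both arrays. Of 30 genes of imprint maintenance, 20 were tested, of which 11 lay lower and 4 higher in both uncv null arrays, with medians of -0.10 and -0.14 and 0 genes at an unadjusted p under 0.05. Hells, a chromatin remodeller needed for DNA methylation, had a mean difference of -0.48 and Atrx, another remodeller, of -0.39. Ehmt1, a histone methyltransferase, stood at 0.29 and the DNA methyltransferase Dnmt3a at -0.25. Zfp57 and Dnmt3l were among the 10 not tested. Of 19 genes of IGF2 and insulin signalling, 15 were tested, of which 8 lay lower and 4 higher in both arrays (medians -0.06 and -0.12). The receptor gene Igf1r, through which IGF2 signals, stood at 6.49, 7.42 and 7.44, a difference of 0.93 ± 0.26 (limma adjusted p = 0.9996), the only tested gene of this list with an unadjusted p under 0.05. Both uncv null arrays lay close together above wild type, opposite to Igf2 and Igf2r. Igfbp2 and Igfbp5, which bind IGFs outside the cell, had differences of -0.85 and -0.73, and Igf1 of -0.66.

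The cell cycle genes that Cdkn1c acts beside had medians of 0.06 and -0.05 over 14 tested genes, with 5 lower and 5 higher in both arrays. Ccne2, a cyclin, had a difference of -0.67, its kinase partner Cdk2 of -0.39 and Ccnd3 of -0.37, while the proliferation marker Mki67 stood at 0.25. A second list of 33 genes with reported imprinting, many of them only in placenta or brain, had 11 tested genes. Of these 5 lay lower and 5 higher in both arrays, with medians of -0.09 and 0.06. Gatm, an enzyme of creatine synthesis, had the largest difference of that list (-0.77 ± 0.27), ahead of Qpct at -0.56, Ano1 at 0.52 and Gab1 at 0.45.

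Genes that mark other tissues of whole skin also differed between the arrays. Skeletal muscle genes lay lower in both uncv null arrays in 18 of 21 tested genes and higher in 1, with medians of -0.80 and -1.11, and 13 of the 21 had an unadjusted limma p under 0.05, all lower (0 after adjustment). The summed level of all 29 listed muscle genes, on the linear scale, was 23794, 15652 and 13232, or 0.658 and 0.556 of wild type. Actc1, Myl4, Myh3 and Tnni1, sarcomere genes of embryonic or slow muscle, had differences of -2.08, -2.07, -2.03 and -2.00. Among myogenic regulators Myog stood at 6.70, 5.82 and 4.85 (-1.36 ± 0.43), and Myod1, Myf5, Myf6 and Pax7 were below the filter. None of the imprinted genes is on the muscle list, and the part of muscle in their values was not tested.

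Connective tissue and fat lists differed as well. Of 15 tested fibroblast genes 9 lay lower and 1 higher in both arrays, with medians of -0.07 and -0.38, and the summed level of the list was 0.954 and 0.773 of wild type. Preadipocyte genes, a list that includes Dlk1, had medians of -0.07 and -0.56 over 7 tested genes. Mature adipocyte genes ran the other way, with 9 of 9 tested genes higher in both arrays, medians of 0.54 and 1.02, and a summed level 1.33 and 1.53 times that of wild type. Retn, Plin4, Cidec and Pnpla2 stood at 1.64, 1.48, 1.05 and 0.87. Keratinocyte genes had medians of 0.09 and 0.20 over 13 tested genes, of which 2 lay lower and 7 higher in both arrays. Itgb4, a hemidesmosome integrin, had the largest difference of that list (1.07 ± 0.31). Schwann cell and nerve genes had medians of -0.21 and -0.72 over 4 tested genes, and the summed level of the list was 0.675 and 0.555 of wild type. Of the 4 tested nerve genes, 2 lay lower and 1 higher in both arrays. Mbp, which encodes a myelin protein, stood at 9.16, 7.88 and 7.29, and Pmp22 had a difference of -0.66. Egr2 ran the other way (0.41), and Sox10 was split between the uncv null arrays (0.03 and -0.54). Endothelial genes had medians of -0.12 and -0.36 over 7 tested genes. Macrophage genes had medians of 0.12 and 0.47 over 8 tested genes, of which 0 lay lower and 6 higher in both arrays. A lower median in uncv null 2 than in uncv null 1, as in the paternally and maternally expressed genes, was seen in 8 of the 14 lists. These were the muscle, fibroblast, preadipocyte, Schwann cell and endothelial lists and those of imprint maintenance, IGF2 and insulin signalling and the cell cycle. Hair follicle genes had medians of -0.10 and 0.14 over 14 tested genes, of which 2 lay lower and 4 higher in both arrays. Melanocyte genes had medians of -0.35 and 0.46 over 8 tested genes, of which 0 lay lower and 2 higher in both arrays. The part of the listed cell types in the imprinted genes was not tested.

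**Figure D4:**
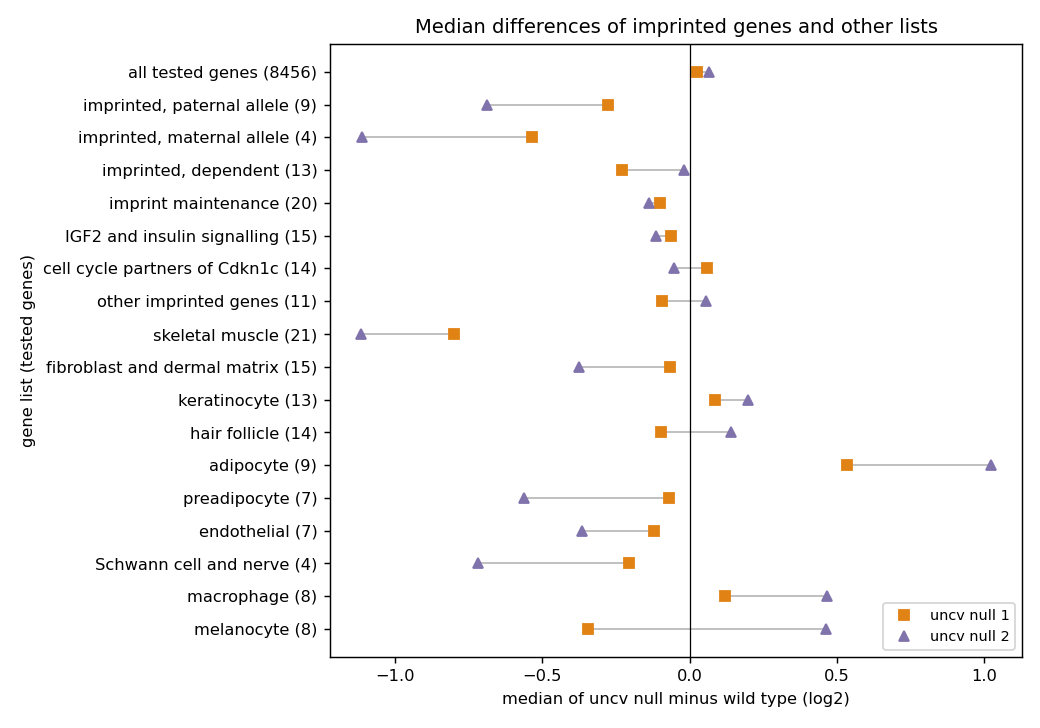
Median difference from wild type (log2, horizontal axis) in uncv null 1 and uncv null 2 for all tested genes, the 3 classes of imprinted genes and the other gene lists, with the number of tested genes in brackets. All 3 classes of imprinted genes lie below 0 in both arrays. So do muscle, fibroblast, preadipocyte, Schwann cell, endothelial, imprint maintenance and IGF2 signalling genes, while adipocyte, macrophage and keratinocyte genes lie above 0. Hair follicle, melanocyte and other imprinted genes lie below 0 in uncv null 1 and above 0 in uncv null 2, and cell cycle genes the reverse.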

How the data were processed

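Expression was measured in dorsal skin of 3 mice on 1-colour arrays, with 1 wild type and 2 uncv null arrays. The deposited values are log2 RMA expression values of 45101 probe sets, which the authors made with RMA, per the submitters' processing notes, a method that corrects background, normalizes between arrays and summarises each probe set. The RMA version is not given in the sources used here. The log2 scale was read from the values (1.96 to 13.1). RMA forces the arrays to a common distribution, which would hide a change common to most transcripts.

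The 64 control probe sets were kept apart. Platform annotation paired 34945 of the other 45037 with 1 symbol, 932 with several and 9160 with none. H19 shares its probe set with a second symbol and was left out. The 13559 probe sets with a mean of at least 5 entered a linear model (lmFit, then eBayes, from limma 3.58.1 under R 4.3.3) with Benjamini-Hochberg adjustment over them all. The single wild type array borrows its spread from the uncv null pair, with 1 residual and 4.75 prior degrees of freedom. The labels number the uncv null samples separately, and p-values measure only the spread between those arrays. The fit was tested on simulated data. All members were named, and from further lists at most 4 genes with the largest difference. Myog, genes named as not tested and the further probe sets of members were picked with their values in view. The members and lists were chosen with earlier results of these data known. Results were recomputed with other filters, scalings, ways to choose a probe set, a variance trend, wider allele classes and leaving out each uncv null array.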

Additional observations from a re-analysis of the deposited data

How the results depend on the processing

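Under every alternative that could be fitted, limma called 0 of the tested members after adjustment, and 0 of all probe sets or genes that entered the fit. The count lower in both arrays stayed within 1.5 times of 17, but the number of members changed between settings. It was 24 of 42 with no filter, 12 of 16 at a minimum mean of 7 and 15 of 19 with probe sets averaged per gene. With 1 uncv null array left out, lower or higher rests on the remaining array alone, and 19 or 21 of 26 lay lower. Among these alternatives a share of all genes is given only with no filter (29.2%). The median of all tested members stayed below 0. The count of genes higher in both arrays was 7 with no filter, 0 at a minimum mean of 7, and 1 with quantile normalization and with probe sets averaged per gene. Leaving out 1 uncv null array gave 5 to 7. The count at least 2-fold lower was 0 at a minimum mean of 7, 2 with the mean of probe sets, and 1 to 8 with 1 array left out. At a minimum mean of 7 Rian is no longer tested. With the mean of probe sets Rian (-0.80) was not among the 2, which were Igf2 (-1.34) and Grb10 (-1.09). Without uncv null 1 the count was 8. The paternal median was -0.27 with no filter and -0.69 to -0.28 with 1 array left out. The maternal median was -0.12 with no filter and -0.29 with wider allele classes. The paternal minus maternal median reversed to -0.15 with no filter and to -0.20 with wider classes, and was 0.024 at a minimum mean of 7 and 0.45 without _x_at and _s_at probe sets. Without _x_at and _s_at probe sets Dlk1 moved from -0.67 to -0.24. Of 26 members, 20 kept their sign throughout. Osbpl5 turned to -0.018 with median centring and -0.034 with quantile normalization, and Slc38a4 to -0.0039 and -0.015, and to -0.025 with the mean of probe sets. With 1 array left out the differences ran from -0.028 to 0.045 for Osbpl5, -0.24 to 0.28 for Slc38a4, -0.46 to 0.00028 for Commd1, -0.73 to 0.16 for Copg2, -0.27 to 0.25 for H13 and -0.60 to 0.091 for Peg3. Where no alternative's own construction accounts for a shift, the cause was not tested. Leaving out the wild type was not possible, and limma was not run with 1 uncv null array. No paired analysis was possible, since there was only 1 wild type array and the labels give no pairs.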

Other observations

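The order of the arrays differed between probe sets of the members. Among the 44 tested probe sets of imprinted genes, uncv null 2 was the lowest array in 26 and uncv null 1 in 15, where over all tested probe sets uncv null 2 was lowest in 28.9% and uncv null 1 in 36.2%. The 8 member probe sets with an unadjusted limma p under 0.05 (0 after adjustment) belong to Igf2, Grb10, Meg3, Rian, Peg3 and Plagl1, and in 7 of the 8 uncv null 1 was lowest. In the other 36 member probe sets uncv null 2 was lowest in 25. The array order over all tested probe sets, split at the same threshold, is not given here. Igf2, Grb10, Meg3, Peg3, Igf2r, Commd1 and Slc38a4 each had tested probe sets of both orders, with uncv null 1 lowest in some and uncv null 2 lowest in others.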
